A study of Homo sapiens with 8 samples.

Results

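Ewing sarcoma (EwS) is driven by the fusion factor EWSR1::FLI1, and 10 genes that it is known to activate and that are not themselves transcription factors were followed here. They are STEAP1, STEAP2, IL1RAP and CD99, whose products sit at the cell surface or in membranes, the secreted lipase LIPI, the RNA-binding protein RBM11, the signalling proteins PRKCB, PPP1R1A and VRK1, and the cell-cycle regulator CCND1. The 10 were chosen by gene symbol from the 60332 genes of the expression table, by a rule that uses no measured value but with earlier results of these data known, and all 10 passed the filter on low values that left 15372 genes to test. RNA was sequenced in 8 libraries of SK-N-MC, an established EwS cell line, in 4 groups of 2. The study asked how low oxygen and silencing of LOXHD1, another EWSR1::FLI1 target, change transcription.

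Every group carried a lentiviral dCas9-KRAB construct (infection at a multiplicity of 10), in which a dead Cas9 is joined to the KRAB repressor domain, and every group was selected with puromycin at 1 μg/ml for 3 days. Control (Ctrl) cells received the empty construct, and eKD1 and eKD2 cells each received a different single guide that placed the repressor beside the GGAA repeat enhancer of LOXHD1. The incubation lasted 16 h. Control libraries come from normoxia and from hypoxia (1% oxygen), eKD1 and eKD2 libraries from hypoxia. Cells were polyclonal pools within 5 passages of selection, so a guide and the pool that carries it cannot be told apart. No eKD library from normoxia was analysed here.

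The fusion joins the activation domain of EWSR1 to the DNA-binding domain of FLI1, which recognises the sequence GGAA. On runs of GGAA repeats it can set up an active enhancer in chromatin that is otherwise closed, and such repeats lie near many of the genes it switches on. Several of the 10 genes are in use or under study as markers or targets in EwS, among them CD99, the surface protein stained in its diagnosis.

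The reference genome around the 10 genes was read first, since a repeat run is a DNA feature through which the fusion is known to act. A run was defined as at least 4 consecutive copies of GGAA, or of TTCC for the opposite strand, without interruption, within 100000 bp on either side of the gene start (GRCh37). No other motif was searched. The longest run near the 10 genes had between 11 and 17 repeats, with a median of 13.5, whereas the median over the tested genes was 4 and 16.5% of tested genes had a run of at least 11. The limit of 11 repeats was set after the values were seen, and the genes were chosen as targets of a factor that binds this motif, so the contrast is a description. Repeat number varies between genomes, and that of SK-N-MC was not measured in these data.

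The 10 genes have 8 distinct longest runs, because the pairs STEAP1 with STEAP2 and LIPI with RBM11 are neighbours that share theirs. The runs of these pairs, of IL1RAP and of CCND1 are shown because LIPI, STEAP2, IL1RAP and CCND1 are the genes called higher in eKD2. Genes not called higher there have runs of similar length, given below. A link between a run and that rise was not tested. Each stretch holds the run and 40 bp on either side, capitals mark the GGAA or TTCC copies, and the plus strand of GRCh37 is given. The stretch for LIPI and RBM11 is chr21:15585573-15585696, between the starts of the pair, that for STEAP1 and STEAP2 is chr7:89837688-89837835 in an intron of STEAP2, that for IL1RAP is chr3:190240040-190240171 in its own intron, and that for CCND1 is chr11:69436883-69437022 between genes.
LIPI and RBM11: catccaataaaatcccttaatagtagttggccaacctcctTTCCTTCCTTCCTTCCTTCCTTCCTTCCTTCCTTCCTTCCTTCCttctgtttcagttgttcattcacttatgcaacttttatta
STEAP1 and STEAP2: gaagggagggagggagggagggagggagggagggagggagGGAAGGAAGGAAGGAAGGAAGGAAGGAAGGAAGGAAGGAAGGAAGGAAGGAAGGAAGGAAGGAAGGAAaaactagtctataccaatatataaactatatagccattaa
IL1RAP: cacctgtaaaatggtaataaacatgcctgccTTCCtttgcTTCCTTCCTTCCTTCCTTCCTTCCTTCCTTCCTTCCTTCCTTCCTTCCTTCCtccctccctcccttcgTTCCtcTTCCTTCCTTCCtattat
CCND1: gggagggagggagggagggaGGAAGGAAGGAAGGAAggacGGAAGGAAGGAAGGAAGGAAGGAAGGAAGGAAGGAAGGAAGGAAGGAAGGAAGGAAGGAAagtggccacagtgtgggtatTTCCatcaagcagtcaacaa

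LIPI and RBM11 are transcribed away from each other from starts 5174 bp apart, and their shared run of 11 repeats is 2337 bp upstream of LIPI and 2795 bp upstream of RBM11. It is the nearest of the longest runs to any of the 10 genes, and the single run in the window of either gene. The run of 17 repeats lies 53958 bp downstream of the start of STEAP1 and 40824 bp downstream of that of STEAP2, and 1.28% of tested genes had a run as long. IL1RAP has a run of 13 repeats 8240 bp inside the gene. CCND1 has 15 repeats 18942 bp upstream, PPP1R1A 14 repeats 36311 bp upstream, VRK1 11 repeats 28117 bp upstream and CD99 13 repeats 25973 bp upstream. For PRKCB the longest run, of 16 repeats, is 98353 bp upstream, near the edge of the window, and the nearest has 13 repeats and lies 31015 bp downstream of the start.

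**Figure D1:**
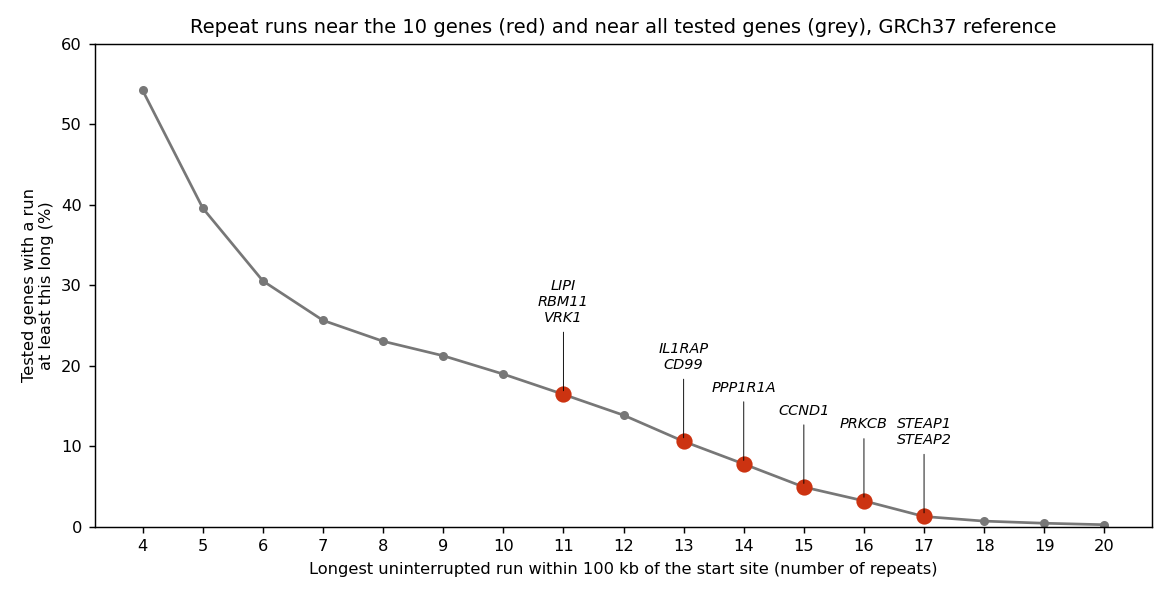
Longest uninterrupted GGAA or TTCC run within 100000 bp of the gene start (x axis, number of repeats) against the percentage of tested genes with a run at least that long (y axis). The 10 genes (red) have runs of 11 to 17 repeats, lengths reached by 16.5% to 1.28% of tested genes (grey).

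The labels were checked on the targeted gene. LOXHD1 measured 156 and 169 FPKM in control normoxia, 93 and 91.1 in control hypoxia, 17.3 and 15 in eKD1 and 11.7 and 11.8 in eKD2. FPKM counts fragments per kilobase of transcript relative to all those mapped in a library. It corrects for transcript length and allows levels of different genes to be set side by side. All eKD libraries were below all control libraries. The table holds no read counts, and the depth read from its low values was 55.7% to 96.1% of the deepest library, replicate 1 of control hypoxia. FPKM totals ran from 865107 to 1041457. The normoxia libraries had the lowest totals (865107 and 877580) and the control hypoxia libraries the highest (1041457 and 1018475). Totals of the eKD libraries lay between these, from 953073 to 997300. Depth was also greatest for control hypoxia, with 96.1% for replicate 2. It was 76% and 55.7% for the normoxia libraries and 61.2% to 82.7% for the eKD libraries. The part of depth in the changes of the 10 genes was not tested. The chosen markers of EwS were present, with 7 of 7 at or above 1 FPKM. They include CD99, which is among the 10 genes, and the targeted gene LOXHD1. Their sum was 908 and 883 FPKM in control normoxia, 769 and 767 in control hypoxia, 657 and 673 in eKD1 and 684 and 692 in eKD2. From control hypoxia to eKD1 and eKD2, LOXHD1 (means of 92.1, 16.2 and 11.7 FPKM) and CD99 (412, 319 and 325 FPKM) were lower. The means of NR0B1 (32.3, 57.6 and 68.4 FPKM), EWSR1 (157, 178 and 193 FPKM), BCL11B and FLI1 were higher in both eKD groups. NKX2-2 averaged 28.8, 35.2 and 27.8 FPKM. The fall of the sum is thus no fall of EwS markers in general. FLI1, whose reads include those of the fusion, averaged 36.6 FPKM in control normoxia, 21.5 FPKM in control hypoxia, 24.2 FPKM in eKD1 and 24.3 FPKM in eKD2. Its part in the changes of the 10 genes was not tested.

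Markers of other cell types were also read in these libraries. Of 7 fibroblast or mesenchymal markers 7 were detected, with summed levels of 430 to 435 FPKM in normoxia and 640 to 680 FPKM in the hypoxic libraries, which overlapped between the hypoxic groups. THY1 made up most of the difference (means of 79 FPKM in control normoxia and 200 FPKM in control hypoxia), while DCN averaged 137 and 146 FPKM. The 5 epithelial markers, mostly KRT18, summed to 125 to 126 FPKM in control normoxia, 85.4 to 88.3 FPKM in control hypoxia and 128 to 152 FPKM in eKD1 and eKD2. Of the 4 blood markers 2 reached 1 FPKM in some library, and their sum was 23.6 to 25 FPKM in normoxia, 5.51 to 5.78 FPKM in control hypoxia and 11.7 to 15.2 FPKM in eKD1 and eKD2, most of it PTPRC, while CD3E was listed at 0 in every library. The fibroblast sum thus differed between normoxia and hypoxia, and the epithelial and blood sums also between control hypoxia and the eKD groups. Their part in the changes described next was not tested. The libraries are of a single cell line, so these sums are levels of marker genes in SK-N-MC cultures and no measure of a mixture of cell types. In bulk RNA, a change in every cell and a change in the share of cells that express a gene cannot be told apart.

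In control normoxia the 10 genes spanned from 664 FPKM for CCND1 to 30.9 FPKM for STEAP2. CCND1 ranked 171 among the 15372 tested genes, PPP1R1A (393 FPKM) 312 and CD99 (316 FPKM) 404. STEAP1, IL1RAP, RBM11 and VRK1 followed at 115, 107, 104 and 101 FPKM. The libraries of IL1RAP, RBM11 and VRK1 overlapped, so the order among these neighbours is not beyond their spread. PRKCB (89.6 FPKM), LIPI (53.3 FPKM) and STEAP2 stood lower, without overlap between libraries. Duplicates were close, with a coefficient of variation between 0.312% and 18.4% over the 40 pairs of libraries and a median of 3.5%.

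**Figure D2:**
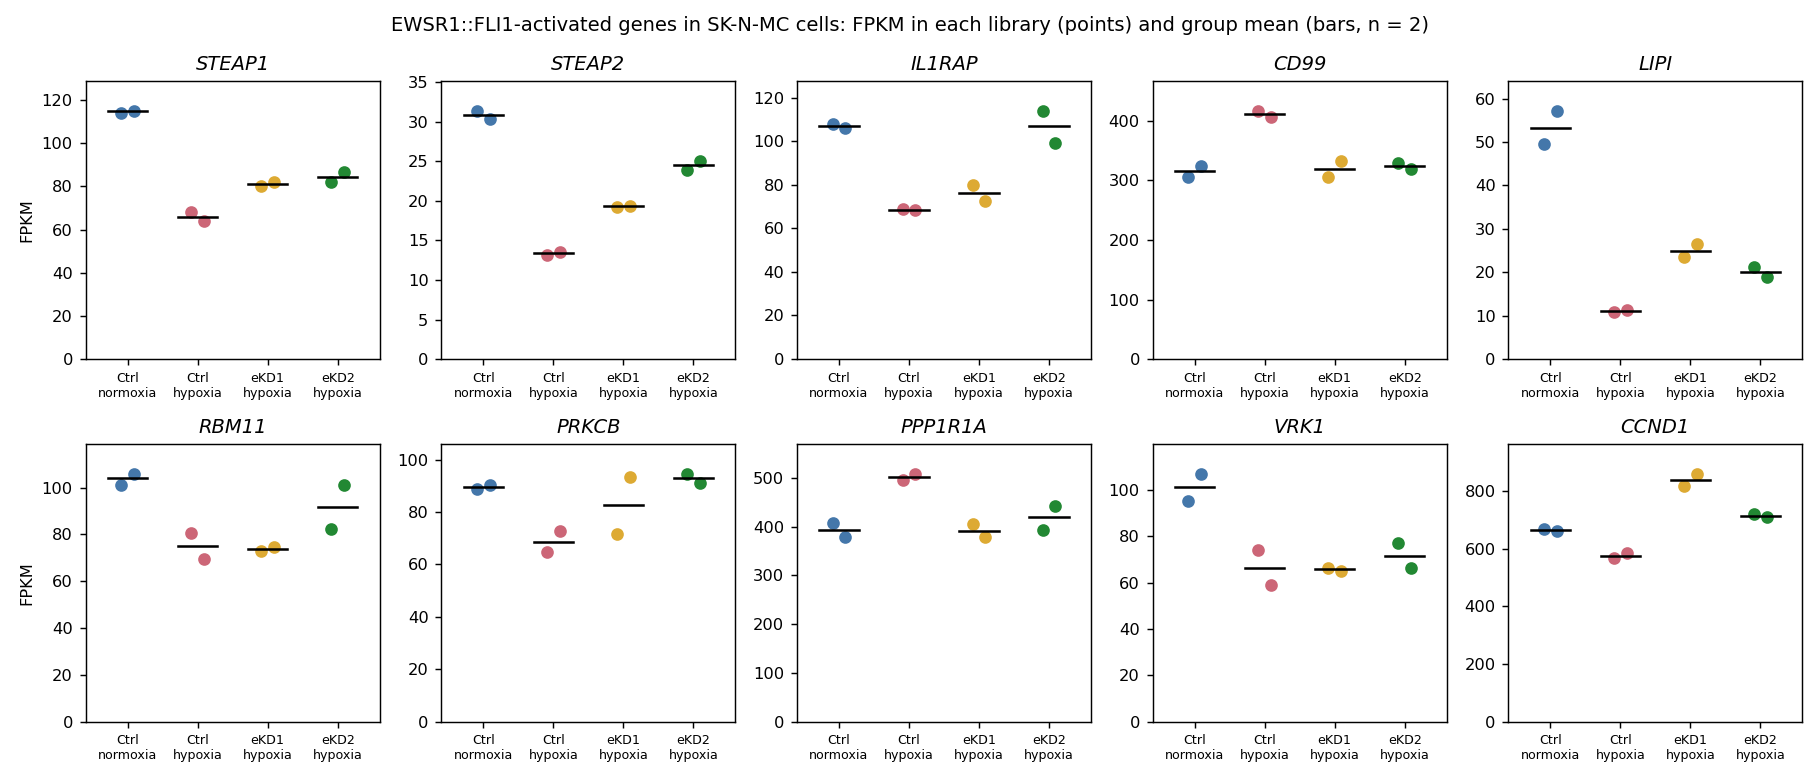
FPKM (y axis, from 0, its own range in each panel) of the 10 genes in each of the 8 libraries (points), by group (x axis), with the group mean (bar, n = 2). LIPI fell from 49.5 and 57.2 FPKM in control normoxia to 10.8 and 11.2 FPKM in control hypoxia, whereas CD99 and PPP1R1A were highest in control hypoxia.

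The first comparison asked how the genes responded to low oxygen in control cells. With limma, 8 of the 10 genes fell and 2 rose at an adjusted p under 0.05. The background was high, since 32.2% of all tested genes were called (16.2% higher and 16% lower). In all 10 genes the libraries of the groups did not overlap, which held for 70.4% of tested genes. The median log2 change, on the scale of FPKM + 1, was -0.54 over the 10 genes and 0.01 over all tested genes. With the FPKM totals set equal, the median of all tested genes moved to -0.19 and that of the 10 genes to -0.77, and higher genes made up 28.3% of all calls in place of 50.3%. The calls on STEAP1, STEAP2, IL1RAP and LIPI passed in 7 of 7 alternatives that kept every library, and those on the other 6 genes in 3 or 4 of 7. The fit of all 8 libraries, in which the groups share an estimate of the spread, called 9 of the 10 genes (all but PRKCB) and 37.9% of tested genes. With 1 library left out, that fit called fewer of the 10 genes and also fewer of all tested genes. The median log2 change of the 10 genes then ran from -0.61 to -0.45, and that of all tested genes from 0.00 to 0.02.

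The comparisons of eKD1 and of eKD2 with control hypoxia asked what silencing the LOXHD1 enhancer did under low oxygen. They use the same control hypoxia libraries as the oxygen comparison, so a chance deviation in those libraries enters all of them, in opposite directions. In eKD1, limma called 0 of the 10 genes, and 0.0651% of all tested genes. At an unadjusted p under 0.05 there were 6 of the 10 (4 higher and 2 lower), against 21.7% of tested genes. The fit of all 8 libraries called 5 of the 10 genes and 4.95% of tested genes. With 1 library left out, that fit called fewer of the 10 genes and also fewer of all tested genes, and the median log2 change of the 10 ran from 0.14 to 0.19. In eKD2, limma called 4 of the 10 genes higher and 1 lower, where 9.61% of all tested genes were called (5.8% higher and 3.81% lower). The share of higher genes among all calls in eKD2 was 60.3%, and it was 46.3% after median-of-ratios rescaling and 77.5% with equal totals. The fit of 8 libraries called 6 of the 10 in eKD2 and 16.9% of tested genes. Leaving out a library lowered the number called among the 10 and also among all tested genes, and the median log2 change of the 10 ran from 0.31 to 0.40. Without a variance trend or with a replicate block, 0 of the 10 were called in eKD2, and without a filter on low values 1 was (STEAP2). The median log2 change of the 10 genes was 0.20 in eKD1 and 0.33 in eKD2, and that of all tested genes was 0.00 and 0.05.

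**Figure D3:**
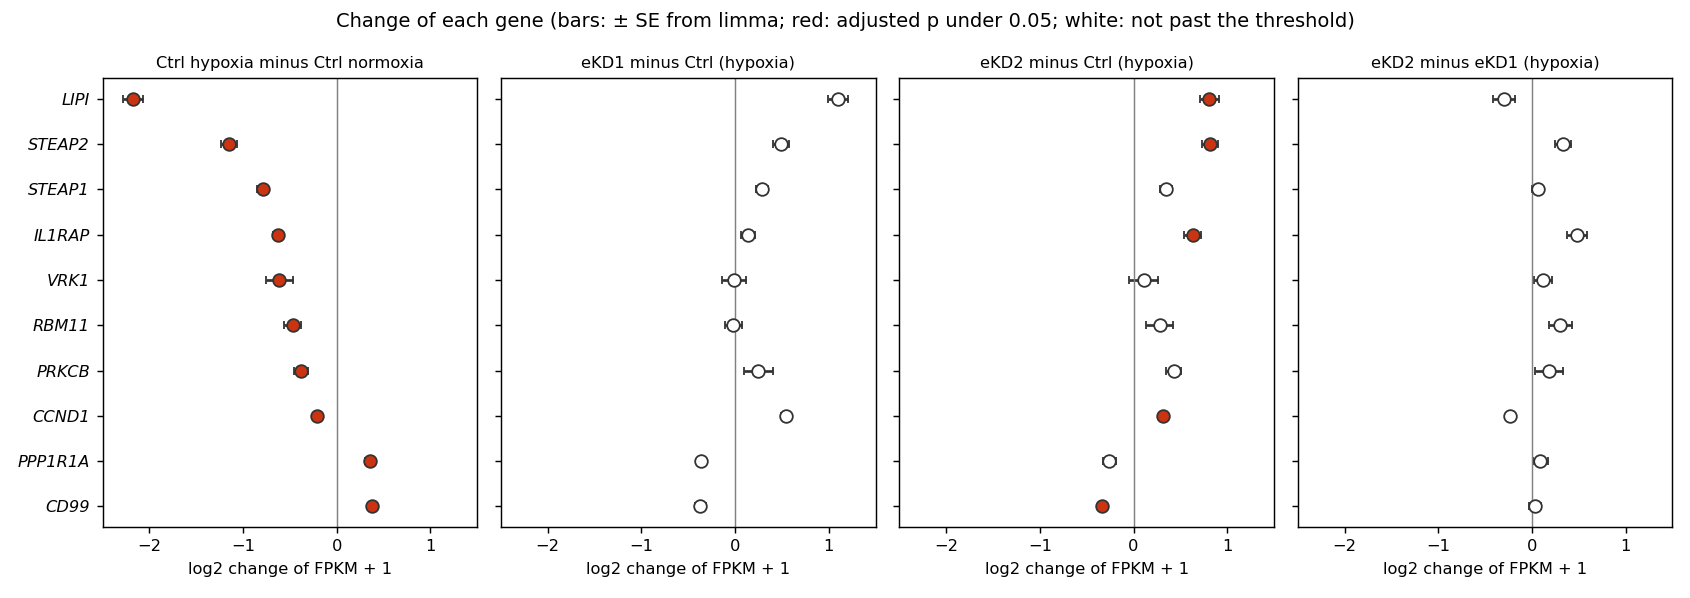
Log2 change of FPKM + 1 (x axis) of each gene (y axis) in 4 comparisons, with the SE from limma as bars, red where the adjusted p was under 0.05 and white where it was not. All 10 genes passed the threshold in control hypoxia against control normoxia, 5 in eKD2 against control hypoxia, and 0 in eKD1 against control hypoxia and in eKD2 against eKD1.

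STEAP1 and STEAP2 encode multi-pass membrane proteins of the STEAP metalloreductase family, and STEAP2 reduces iron and copper. STEAP1 (ENSG00000164647.8_2, chr7:89783770-89794143, plus strand) measured 114 and 115 FPKM in control normoxia, 68 and 64.1 in control hypoxia, 80.1 and 82 in eKD1 and 81.8 and 86.8 in eKD2. Control hypoxia was lowest and control normoxia highest, with eKD1 and eKD2 between them and overlapping each other. STEAP1 fell 1.74-fold under hypoxia (log2 change -0.79, SE 0.0591, limma adjusted p = 0.00809). Its log2 change in eKD1 was 0.29 (SE 0.0613, limma adjusted p = 0.137) and that in eKD2 was 0.35 (SE 0.066, limma adjusted p = 0.0583), both short of the threshold. The change in eKD2 passed in the fit of 8 libraries (limma adjusted p = 0.0154) and with equal totals (limma adjusted p = 0.0349), over the alternatives from 0.0154 to 0.124.

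STEAP2 (ENSG00000157214.13_3, chr7:89796904-89867451, plus strand) measured 31.4 and 30.4 FPKM in control normoxia, 13.2 and 13.6 in control hypoxia, 19.2 and 19.4 in eKD1 and 23.9 and 25 in eKD2. No libraries overlapped between any groups, in the order normoxia, eKD2, eKD1 and control hypoxia. It fell 2.3-fold under hypoxia (log2 change -1.15, SE 0.0836, limma adjusted p = 0.00809) and rose in eKD2 (0.82, SE 0.0845, limma adjusted p = 0.0305). The change in eKD1 was 0.49 (SE 0.0894, limma adjusted p = 0.122), and it passed in the fit of 8 libraries (limma adjusted p = 0.0285, over the alternatives from 0.0285 to 0.251). The ratio of STEAP1 to STEAP2, which was not tested, was 3.64 and 3.77 in control normoxia, 5.13 and 4.72 in control hypoxia, 4.17 and 4.23 in eKD1 and 3.42 and 3.47 in eKD2, without overlap between control hypoxia and any other group. The paralogue STEAP1B measured at most 0.181 FPKM and the antisense gene STEAP2-AS1 at most 0.986 FPKM. STEAP3 and STEAP4 were below the filter, so no other family member was tested.

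IL1RAP is the shared co-receptor of the interleukin 1 receptor family, needed for signalling by interleukin 1 and interleukin 33. The gene (ENSG00000196083.9_3, chr3:190231840-190377539, plus strand) measured 108 and 106 FPKM in control normoxia, 69 and 68.3 in control hypoxia, 79.8 and 72.4 in eKD1 and 114 and 99.2 in eKD2. The eKD2 libraries lay on either side of the normoxia libraries, and eKD1 was only slightly above control hypoxia. IL1RAP fell 1.56-fold under hypoxia (log2 change -0.63, SE 0.0526, limma adjusted p = 0.00852) and rose 1.56-fold in eKD2 (0.63, SE 0.089, limma adjusted p = 0.0401). In eKD1 the change was 0.14 (SE 0.0728, limma adjusted p = 0.344). The difference between eKD2 and eKD1, tested directly, was 0.48 (SE 0.104, limma adjusted p = 0.12) and passed in the fit of 8 libraries (limma adjusted p = 0.0259, over the alternatives from 0.0259 to 0.235).

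Most partners of IL1RAP were at low levels. Of the 16 other genes of this family and its adaptors, 9 were below the filter, among them the receptors IL1R1 and IL1RL1 and the cytokines IL1A and IL1B. Of the 7 that were tested, 2 rose and 0 fell under hypoxia, against 16.2% of tested genes higher and 16% lower. SIGIRR, an inhibitory receptor of the family, went from 13.5 and 14.3 FPKM to 22.8 and 20.9 FPKM (log2 change 0.62, SE 0.1, limma adjusted p = 0.0226). The other was IL33, which is named after its values were seen, and which was at most 2.05 FPKM in control cells. In eKD1 and eKD2, 0 of the 7 were called by limma (1 and 2 at an unadjusted p under 0.05). Such a p was found for 21.7% of tested genes in eKD1 and 5048 of 15372 in eKD2.

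CD99 is a surface glycoprotein with roles in adhesion and migration. It lies in the pseudoautosomal region (ENSG00000002586.18_3, chrX:2609228-2659350, plus strand). It measured 306 and 325 FPKM in control normoxia, 417 and 406 in control hypoxia, 305 and 333 in eKD1 and 329 and 320 in eKD2. Both control hypoxia libraries were above the other 6 libraries, which overlapped one another. CD99 rose under hypoxia (log2 change 0.38, SE 0.05, limma adjusted p = 0.0154), a call lost with equal totals (0.14, limma adjusted p = 0.0761, the highest over the alternatives, which began at 0.00404). It fell in eKD2 (-0.34, SE 0.0402, limma adjusted p = 0.0339), and its change in eKD1 was -0.37 (SE 0.0605, limma adjusted p = 0.12), called in the fit of 8 libraries (limma adjusted p = 0.0281, over the alternatives from 0.0281 to 0.249). Reads of the pseudogene CD99P1, at 16.3 to 23.4 FPKM, may be shared with it. Of its tested relatives, CD99L2 rose under hypoxia, from 17.4 and 16.6 FPKM to 26.4 and 30.2 FPKM (log2 change 0.70, SE 0.106, limma adjusted p = 0.0199), and XG was not called.

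LIPI, a membrane-associated and secreted phospholipase that makes lysophosphatidic acid, changed most among the 10 genes in hypoxia and in eKD1. It (ENSG00000188992.11_2, chr21:15481134-15583276, minus strand) measured 49.5 and 57.2 FPKM in control normoxia, 10.8 and 11.2 in control hypoxia, 23.4 and 26.5 in eKD1 and 21.1 and 19 in eKD2. No groups overlapped, and all hypoxic libraries stayed below normoxia. LIPI fell 4.83-fold under hypoxia (log2 change -2.17, SE 0.107, limma adjusted p = 0.00665). In eKD1 it was 2.26-fold above control hypoxia (1.10, SE 0.109, limma adjusted p = 0.102), a change called in the fit of 8 libraries (limma adjusted p = 0.0137, over the alternatives from 0.0137 to 0.249). In eKD2 it rose 1.82-fold (0.81, SE 0.103, limma adjusted p = 0.0359). Those levels were 20.7% of the normoxia mean in control hypoxia, 46.7% in eKD1 and 37.6% in eKD2.

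Lysophosphatidic acid acts through the LPAR receptors. Of 7 tested genes of this pathway other than LIPI, 0 rose and 2 fell under hypoxia (16.2% and 16% of all tested genes). In eKD1 or eKD2 0 were called by limma (2 and 3 at an unadjusted p under 0.05). Among all tested genes, 21.7% in eKD1 and 5048 of 15372 in eKD2 had such a p. The receptor gene LPAR1 went from 17 and 21.6 FPKM to 8.96 and 10.6 FPKM (log2 change -0.91, SE 0.17, limma adjusted p = 0.0296). The other was LPAR4, named after its values were seen, which went from 4.88 and 3.31 FPKM to 0.982 and 1.08 FPKM.

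RBM11, an RNA-binding regulator of splicing, is the neighbour of LIPI (ENSG00000185272.13_2, chr21:15588451-15600693, plus strand). It measured 101 and 106 FPKM in control normoxia, 80.5 and 69.6 in control hypoxia, 72.8 and 74.6 in eKD1 and 82.2 and 101 in eKD2. Normoxia was above control hypoxia and eKD1, which overlapped each other, and it met the upper eKD2 library. RBM11 fell under hypoxia (log2 change -0.47, SE 0.0935, limma adjusted p = 0.0338). Its change in eKD1 was -0.02 (SE 0.0919, limma adjusted p = 0.92), a sign that turned with equal totals (0.05), and that in eKD2 was 0.28 (SE 0.142, limma adjusted p = 0.259). The ratio of RBM11 to LIPI was 2.05 and 1.86 in control normoxia, 7.43 and 6.2 in control hypoxia, 3.12 and 2.82 in eKD1 and 3.89 and 5.34 in eKD2. The ratios of this pair, which lies on either side of a single repeat run, did not overlap between any groups, and they were not tested. HSPA13, the single other gene of this neighbourhood that passed the filter, was not called, at 15.6 and 13.6 FPKM in control normoxia and 24 and 19.3 FPKM in control hypoxia. RBM7, a relative of RBM11, was not called in any comparison.

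PRKCB is a conventional protein kinase C, activated by calcium and diacylglycerol. It (ENSG00000166501.12_3, chr16:23847304-24231932, plus strand) measured 88.7 and 90.4 FPKM in control normoxia, 64.9 and 72.6 in control hypoxia, 71.8 and 93.4 in eKD1 and 94.7 and 91.1 in eKD2. The eKD1 libraries spanned from within control hypoxia to above normoxia, and both eKD2 libraries were above both of normoxia. PRKCB fell under hypoxia (log2 change -0.38, SE 0.0787, limma adjusted p = 0.0365). Its change in eKD1 was 0.25 (SE 0.156, limma adjusted p = 0.426) and that in eKD2 was 0.43 (SE 0.079, limma adjusted p = 0.0554). The latter passed with equal totals (limma adjusted p = 0.0444, over the alternatives from 0.0444 to 0.119). Of the 6 other protein kinase C genes tested, 2 rose under hypoxia and 0 fell (16.2% and 16% of all tested genes). PRKCI, an atypical member, went from 72.6 and 65.4 FPKM to 118 and 118 FPKM (log2 change 0.77, SE 0.0734, limma adjusted p = 0.00976). It was higher again in eKD2, at 146 and 153 FPKM (0.34, SE 0.0498, limma adjusted p = 0.042). In eKD1 it was instead below control hypoxia, at 110 and 98.6 FPKM (-0.18, SE 0.0719, limma adjusted p = 0.259). PRKCD went from 2.97 and 2.07 FPKM to 5.12 and 5.47 FPKM under hypoxia (0.85, SE 0.193, limma adjusted p = 0.0432). PRKCI was the single gene of these 6 called in eKD2 (9.61% of all tested genes). Limma called 0 in eKD1 (0 at an unadjusted p under 0.05, against 21.7% of tested genes).

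PPP1R1A, also called inhibitor 1, blocks protein phosphatase 1 once protein kinase A has phosphorylated it. The gene (ENSG00000135447.16_3, chr12:54969171-54982443, minus strand) measured 407 and 378 FPKM in control normoxia, 496 and 509 in control hypoxia, 405 and 379 in eKD1 and 394 and 443 in eKD2. As for CD99, both control hypoxia libraries were above the other 6. It rose under hypoxia (log2 change 0.36, SE 0.0539, limma adjusted p = 0.0199), and with equal totals the change was 0.11 and not called (limma adjusted p = 0.229, the highest over the alternatives, which began at 0.0111). The change in eKD1 was -0.36 (SE 0.0516, limma adjusted p = 0.114; 0.0483 in the fit of 8 libraries, over the alternatives from 0.0483 to 0.249) and that in eKD2 was -0.26 (SE 0.0709, limma adjusted p = 0.0984). The kit does not mark strand, and 11.1% of the exonic bases of PPP1R1A are shared with PDE1B, which measured 26.9 to 33.4 FPKM.

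Of 12 other tested genes of protein phosphatase 1 and protein kinase A, 3 rose and 1 fell under hypoxia, against 16.2% of tested genes higher and 16% lower. The related inhibitor PPP1R1B went from 3.3 and 3.88 FPKM to 12.1 and 12.4 FPKM (log2 change 1.53, SE 0.136, limma adjusted p = 0.00902), and the regulatory subunit PRKAR2B from 14.2 and 13.7 FPKM to 25.5 and 29.7 FPKM (0.93, SE 0.114, limma adjusted p = 0.014). The catalytic subunit PRKACB fell from 17.2 and 21.7 FPKM to 9.32 and 9.56 FPKM (-0.96, SE 0.149, limma adjusted p = 0.0208). It was also the single gene of the 12 called in eKD2 (9.61% of all tested genes), at 17.6 and 16.5 FPKM (0.79, SE 0.0981, limma adjusted p = 0.0351). In eKD1 0 were called by limma (2 at an unadjusted p under 0.05, against 21.7% of tested genes).

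VRK1 is a nuclear kinase that phosphorylates histones and BANF1, the factor that ties chromatin to the nuclear envelope. It (ENSG00000100749.7_3, chr14:97263641-97421183, plus strand) measured 95 and 107 FPKM in control normoxia, 74 and 58.8 in control hypoxia, 66.3 and 65.1 in eKD1 and 77.1 and 66.1 in eKD2. All hypoxic libraries were below normoxia, and the 3 hypoxic groups overlapped. VRK1 fell under hypoxia (log2 change -0.61, SE 0.144, limma adjusted p = 0.0472). It had the widest SE of the 10 genes in that comparison. Its change in eKD1 was -0.01 (SE 0.131, limma adjusted p = 0.988) and that in eKD2 was 0.11 (SE 0.153, limma adjusted p = 0.652), and both signs turned when a library was left out (from -0.17 to 0.16 in eKD1 and from -0.05 to 0.28 in eKD2). VRK2, VRK3 and BANF1 were not called in any comparison.

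CCND1 encodes cyclin D1, which partners CDK4 and CDK6 to drive cells from G1 into S phase. It (ENSG00000110092.3_2, chr11:69455924-69469242, plus strand) measured 667 and 661 FPKM in control normoxia, 566 and 584 in control hypoxia, 817 and 860 in eKD1 and 719 and 708 in eKD2. No groups overlapped, and CCND1 stood above normoxia in all libraries of eKD1 and eKD2, at 126% and 107% of the normoxia mean. It fell under hypoxia (log2 change -0.21, SE 0.0376, limma adjusted p = 0.028). In eKD1 it was 1.46-fold above control hypoxia (0.54, SE 0.0459, limma adjusted p = 0.102), a change called in the fit of 8 libraries (limma adjusted p = 0.007, over the alternatives from 0.007 to 0.249). It rose 1.24-fold in eKD2 (0.31, SE 0.0367, limma adjusted p = 0.0339). The difference of eKD2 from eKD1 was -0.23 (SE 0.0455, limma adjusted p = 0.111), called in the fit of 8 libraries (limma adjusted p = 0.0251, over the alternatives from 0.0251 to 0.246). Oxygen and guide both differ between the eKD groups and control normoxia, so those levels were not tested against each other. Exonic bases shared with LTO1, listed as ORAOV1 at 28.3 to 56.5 FPKM, made up 10.4% of CCND1.

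**Figure D4:**
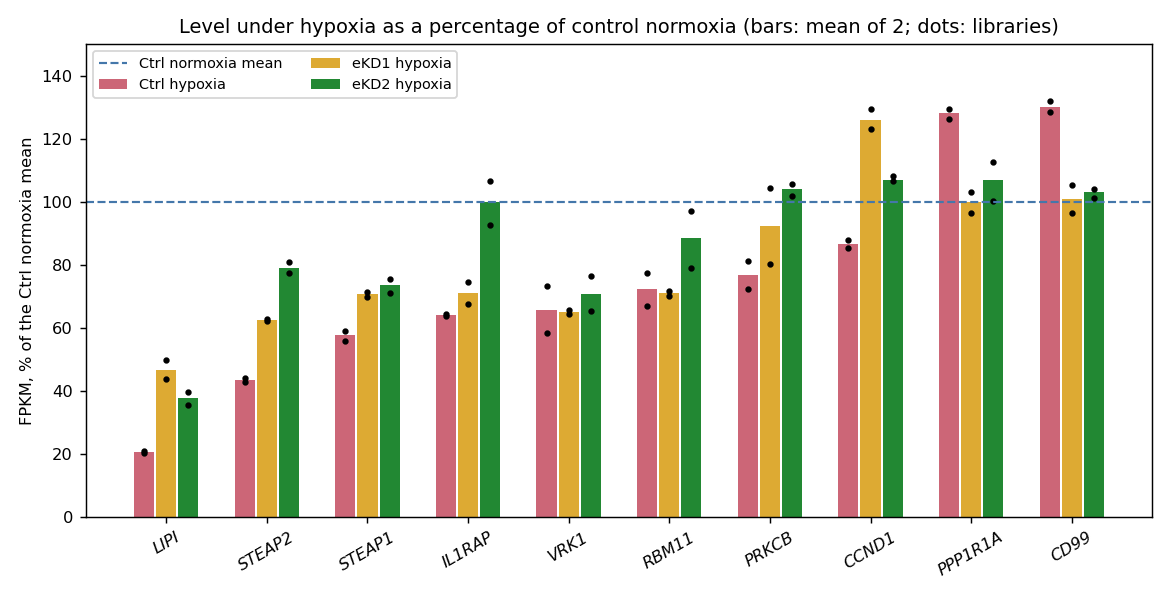
Mean FPKM of each gene (x axis) in the 3 hypoxic groups as a percentage of the control normoxia mean (y axis, from 0; dashed line, 100%), with each library as a dot. LIPI stood at 20.7%, 46.7% and 37.6% in control hypoxia, eKD1 and eKD2, and CCND1 at 86.6%, 126% and 107%.

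Other G1 regulators moved in both directions. Of 12 tested besides CCND1, 5 rose and 2 fell under hypoxia, against 16.2% of tested genes higher and 16% lower. The cell-cycle inhibitor gene CDKN1A went from 1.27 and 1.55 FPKM to 6.81 and 7.02 FPKM (log2 change 1.72, SE 0.152, limma adjusted p = 0.009), and CCND2, which encodes cyclin D2, from 23 and 19.3 FPKM to 39.9 and 38 FPKM (0.86, SE 0.116, limma adjusted p = 0.0163). The pocket protein genes RBL1 (-0.65, SE 0.142, limma adjusted p = 0.0408) and RB1 (-0.42, SE 0.076, limma adjusted p = 0.0276) fell. In eKD2 1 of the 12 rose and 2 fell, against 5.8% of tested genes higher and 3.81% lower. The inhibitor gene CDKN1B went from 22.4 and 21.1 FPKM in control hypoxia to 33.8 and 31.7 FPKM (0.57, SE 0.0828, limma adjusted p = 0.0419). In eKD1 it was instead below control hypoxia, at 18.6 and 18 FPKM (-0.24, SE 0.0884, limma adjusted p = 0.247). Its difference of eKD2 from eKD1 was 0.80 (SE 0.0854, limma adjusted p = 0.0766). CDKN2A, another inhibitor gene, went from 180 and 186 FPKM to 114 and 124 FPKM in eKD2 (-0.61, SE 0.0627, limma adjusted p = 0.0305). The transcription factor gene E2F1 went from 75.7 and 78.4 FPKM to 52.1 and 52.7 FPKM (-0.55, SE 0.056, limma adjusted p = 0.0305). Both were also below control hypoxia in eKD1, CDKN2A at 129 and 135 FPKM and E2F1 at 65.1 and 68.1 FPKM. CDK4 was not called, at 395 and 418 FPKM in control hypoxia and 414 and 425 FPKM in eKD2. In eKD1 0 were called by limma (3 at an unadjusted p under 0.05, against 21.7% of tested genes).

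Across groups, 6 of the 10 genes had their highest mean in control normoxia (STEAP1, STEAP2, IL1RAP, LIPI, RBM11 and VRK1) and 6 their lowest in control hypoxia (STEAP1, STEAP2, IL1RAP, LIPI, PRKCB and CCND1). The share of all tested genes with such an order was not counted, so these 2 counts only describe the 10 genes. In eKD1 the libraries did not overlap control hypoxia in 5 genes that were higher (STEAP1, STEAP2, IL1RAP, LIPI and CCND1) and 2 that were lower (CD99 and PPP1R1A). Among all tested genes 53.6% showed no overlap, 27.6% higher and 26% lower. In eKD2 this held for 7 higher and 2 lower genes, against 62.1% of tested genes (35.8% higher and 26.4% lower).

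eKD2 was compared with eKD1 to ask whether the guides differed. Limma called 0 of the 10 genes, and 0.403% of tested genes. At an unadjusted p under 0.05, STEAP2 and IL1RAP were higher and CCND1 lower in eKD2, that is 3 of the 10 genes, against 23.6% of tested genes. The fit of 8 libraries called IL1RAP and CCND1, where 9.05% of tested genes were called, and it called neither when any library of eKD1 or eKD2 was left out. LIPI differed by -0.30 on the log2 scale, with an SE of 0.115 (limma adjusted p = 0.239), and STEAP2 by 0.33 (SE 0.0833, limma adjusted p = 0.147). The remaining 6 genes had changes between 0.03 (CD99) and 0.30 (RBM11).

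The gene with the most similar profile was looked up for each of the 10 among 10798 other genes with a mean of at least 5 FPKM, by the root mean square difference of log2 values over the 8 libraries, each centred on its mean. All profiles share the same 8 libraries, so the likeness is a description. The difference also tends to be larger for a gene that itself varied more. The root mean square of a gene's own centred profile was 0.78 for LIPI, against 0.16 for PPP1R1A and 0.16 for CD99. The order below is thus one of absolute differences and not of likeness relative to each gene's own change. PPP1R1A had the smallest difference, from PEX19, at 0.037, followed by STEAP1 with MRPL24 at 0.044 and IL1RAP with RPRD2 at 0.049. PRKCB was nearest to TNKS2 (0.051), CD99 to PRDX4 (0.054), STEAP2 to ATF1 (0.061), CCND1 to ZBTB4 (0.061), RBM11 to XRCC3 (0.062) and VRK1 to GNL2 (0.062). LIPI was nearest to LINC00641, at 0.11, which measured 20.8 and 19.6 FPKM in control normoxia and 4.4 and 3.64 FPKM in control hypoxia. Among the 10 genes themselves, CD99 and PPP1R1A were the closest pair (0.096), and LIPI was the farthest from CD99 and PPP1R1A (0.91 each).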

How the data were processed

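RNA-seq was performed on poly-A selected RNA of 8 SK-N-MC libraries, called biological duplicates in the study. The p-values rest on the spread between these duplicates, with that of each gene drawn toward a trend over all tested genes. Single-end 75-base reads were aligned by the authors with STAR (GRCh37), and cufflinks and cuffnorm gave the deposited FPKM of each gene and library. FPKM is scaled within each library, and the scaling between libraries is not given in the sources used here. The submitters' processing notes also name FastQC and DESeq2. The study tested counts with a count model, which FPKM does not allow, so limma replaced it.

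Values were analysed as log2(FPKM + 1), which understates changes of low genes. The test covered the 15372 of 60332 genes that reached 1 FPKM in 2 or more libraries. Each pair of groups was fitted alone with limma 3.58.1 (lmFit, eBayes with trend) in R 4.3.3, two-sided, with Benjamini-Hochberg adjustment over all tested genes and a threshold of 0.05. The code was tested on simulated data. Alternatives were a pseudocount of 0.1, no filter, median-of-ratios rescaling, equal totals, a fit of all 8 libraries, no variance trend, a replicate block and omission of each library. Omission within the fit of 8 libraries was added after the data were seen.

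The genes and gene lists were chosen with earlier results of these data known. From each list, called genes whose higher group averaged 5 FPKM or more were ranked by change, and the top 2 in each direction are named. Positions came from GENCODE on GRCh37, which placed 98.7% of tested genes. Without counts, no counting interval or detection floor was given for a single FPKM value.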

Additional observations from a re-analysis of the deposited data

How the results depend on the processing

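Of the 10 genes, limma called 10 in hypoxia, 0 in eKD1, 5 in eKD2 and 0 in eKD2 against eKD1. Without a filter on low values it called 5 in hypoxia and 1 in eKD2, and without a variance trend 4 and 0. The fit of 8 libraries called 5 in eKD1 and 2 in eKD2 against eKD1. Leaving out 1 library within the fit of 8 libraries lowered the number called in hypoxia, in eKD1 and in eKD2, among the 10 genes and among all tested genes. Fits of 2 libraries against 1 called 0 of all tested genes and so say nothing about single genes, with the lone library assumed to vary like the others. In eKD1 the fit of 8 libraries also called 0 of the 10 without replicate 1 or 2 of control hypoxia, where it called 20 and 22 of all genes. A replicate block called 4 in hypoxia and 0 in eKD2. The replicate numbers share only a number, since deviations of same-numbered libraries correlated at -0.057 to 0.126 between groups, and the block moved the calls among all genes to 2570 in hypoxia and 0 elsewhere. Calls among all genes were 4946 in hypoxia, 10 in eKD1, 1477 in eKD2 and 62 in eKD2 against eKD1. They became 3024, 206, 853 and 260 without a filter. The fit of 8 libraries gave 761 in eKD1, 2601 in eKD2 and 1391 in eKD2 against eKD1, and the absence of a trend 6, 28 and 5. Small changes turned sign with equal totals in eKD1 (RBM11 0.05 and VRK1 0.06) and, after median-of-ratios rescaling, for CD99 in eKD2 against eKD1 (-0.02). With 1 library left out, the log2 change ran from -0.12 to 0.08 for RBM11 and from -0.17 to 0.16 for VRK1 in eKD1, from -0.05 to 0.28 for VRK1 in eKD2, and from -0.04 to 0.09 for CD99 and -0.01 to 0.37 for PRKCB in eKD2 against eKD1. The causes were not tested. Omission changes both the number of libraries and which of them remain, so it cannot separate these. Of 280 log2 changes under the other alternatives, 232 kept their direction and side of the threshold, 35 lost their call, 10 gained one and 3 turned sign. Depth per library is unknown and limits what can be said of low genes.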

Other observations

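A further 17 tested genes that are activated by EWSR1::FLI1 and are not transcription factors were read beside the 10. Under hypoxia 3 rose and 8 fell by limma, against 16.2% of tested genes higher and 16% lower. KDSR, an enzyme of sphingolipid synthesis, fell from 176 and 184 FPKM in control normoxia to 90 and 93.1 FPKM in control hypoxia (log2 change -0.97, SE 0.0551, limma adjusted p = 0.00681). AURKA, a mitotic kinase, fell from 60.7 and 57.1 FPKM to 28.6 and 29.9 FPKM (-0.99, SE 0.0744, limma adjusted p = 0.00809). The glutathione transferase gene GSTM4 rose from 30.7 and 27.1 FPKM to 46.8 and 46.3 FPKM (0.67, SE 0.0913, limma adjusted p = 0.0163), and FCGRT, the neonatal Fc receptor, rose from 1303 and 1443 FPKM to 2094 and 2080 FPKM (0.61, SE 0.0607, limma adjusted p = 0.0103).

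In eKD2, 3 of the 17 rose and 2 fell, against 5.8% of tested genes higher and 3.81% lower. KDSR was at 146 and 145 FPKM, above control hypoxia in both libraries (log2 change 0.67, SE 0.048, limma adjusted p = 0.0273). PDGFC, a platelet-derived growth factor, went from 13.2 and 10.5 FPKM in control hypoxia to 22.3 and 24 FPKM (0.91, SE 0.143, limma adjusted p = 0.0453). The peptide hormone gene CCK fell from 686 and 677 FPKM to 503 and 513 FPKM (-0.42, SE 0.0343, limma adjusted p = 0.0273). CAV1, the main protein of caveolae, fell from 622 and 650 FPKM to 466 and 494 FPKM (-0.41, SE 0.0506, limma adjusted p = 0.0351), and both of these libraries and both of eKD1 (553 and 503 FPKM) were below control hypoxia. In eKD1, 0 of the 17 were called by limma, and 6 had an unadjusted p under 0.05, against 21.7% of tested genes.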
